A study of Rattus norvegicus with 6 samples.

Results

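The genes described here are the Gli transcription factors and the core of the Hedgehog pathway in rat nucleus pulposus cells (NPCs), the cells of the soft centre of the intervertebral disc. They are 9 listed genes, Gli1, Gli2, Gli3, Ptch1, Smo, Hhip, Sufu, Boc and Gas1, and they were taken by symbol from the combined table of raw read counts, which has 20264 rows. A row was found for 8 of them, and Gas1, a co-receptor, was not analysed here. The pathway was chosen by the read counts of these same 6 libraries and the difference between the 2 groups in them, so the values of the members are given as a description, with no p printed for any of them. Members past a threshold are counted only beside the share of all genes, and nothing is read from those counts.

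All 6 libraries are bulk RNA-seq of primary NPCs from the caudal discs of male wild type Sprague-Dawley rats, and all 6 cultures received tert-butyl hydroperoxide (TBHP), an oxidant used to bring on senescence. The TBHP group (3 libraries) received TBHP only, and the TBHP+FGF21 group (3 libraries) also received recombinant rat FGF21, a secreted hormone of the fibroblast growth factor family. Cells without TBHP were not among these libraries. Neither the dose nor the time of either agent in the sequenced cultures, nor the age of the rats, is given in the sources used here. The treatment labels name FGF21 for replicate 1 of the TBHP+FGF21 group but FGF22 and FGF23 for replicates 2 and 3, and the titles and the stated design were followed.

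Hedgehog signalling runs through the primary cilium. Without ligand, the receptor PTCH1 holds the membrane protein SMO inactive, SUFU restrains the GLI proteins, and GLI3 (with part of GLI2) is cut to a repressor. When SHH, IHH or DHH binds PTCH1, with BOC, CDON or GAS1 as co-receptors, SMO enters the cilium, GLI2 and GLI3 act as activators, and Gli1, Ptch1 and Hhip are transcribed, the last 2 as feedback inhibitors. SHH comes from the embryonic notochord, from which the nucleus pulposus forms, and it patterns the sclerotome that gives rise to the vertebrae.

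The libraries held between 18277732 and 22426190 counts. Levels are CPM, read counts scaled to a common library size after TMM normalisation, and are compared only within a gene because no transcript lengths were used. Replicate 2 of the TBHP+FGF21 group stood apart from its group. Over 11426 genes its log2 CPM had a mean Pearson's r of 0.993 with the TBHP libraries and 0.987 with the others of its group, so results are given with and without it. It was singled out in these same data for its likeness to the TBHP libraries. Leaving it out therefore tends to widen the differences between the groups, and calls made without it are a description only. Of 12 notochordal markers 11 had a row, and the sum lay between 897 and 961 CPM in the TBHP group and between 770 and 921 CPM with FGF21. That sum was mostly Slc2a1 (354 to 401 CPM) and Lgals3 (365 to 517 CPM), which many cells express. Tbxt and Noto were at 0 counts in every library, and Krt18, Foxa2 and Car12 had 5, 32 and 41 counts in all. The 5 chondrocyte-like markers summed to between 2570 and 3018 CPM against 2933 to 4427 CPM. That sum was nearly all Acan (2506 to 4355 CPM), while Col2a1 and Matn3 had 68 and 33 counts in all. The 9 annulus and fibroblast markers, with Tnmd at 0, summed to between 42793 and 47290 CPM against 32531 to 44748 CPM, and the part of such shifts in the values of the members was not tested. Most of the annulus and fibroblast sum was Col1a1 (27868 to 42463 CPM), while Col1a2 had 72 counts in all. The reason for so few Col1a2 counts was not tested, and they are not read as absence of its RNA. The 4 smooth muscle and pericyte markers summed to between 2446 and 2680 CPM against 1963 to 2647 CPM. The 6 macrophage markers summed to between 32.2 and 37.9 CPM against 26.8 to 33.0 CPM, with Ptprc and Adgre1 at 0, and the 3 of 4 endothelial markers with a row to at most 0.527 CPM in any library, with Cdh5 and Kdr at 0. In such bulk libraries, fewer cells of a type and less RNA per cell cannot be told apart.

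Ptch1, the receptor and a direct target of the pathway, was almost level across the cultures. Its levels were 13.3, 14.6 and 13.6 CPM in replicates 1, 2 and 3 of the TBHP group. They were 15.7, 15.8 and 15.7 CPM in the TBHP+FGF21 group. All 3 TBHP+FGF21 libraries were above all 3 TBHP libraries, and replicate 2 did not differ from its group here. The means were 13.8 ± 0.68 and 15.8 ± 0.036 CPM (SD, n = 3), a log2 difference of 0.19 (standard error 0.11, edgeR).

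The window of 250 bases before the annotated start of Ptch1 is shown because it holds the GLI binding motif, GACCACCCA, in its reverse-strand form TGGGTGGTC, in capitals. The sequence is RefSeq's, build GRCr8, chr17:1555321-1555570, plus strand, and the first base of the motif lies 172 bases before the start.

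Ptch1: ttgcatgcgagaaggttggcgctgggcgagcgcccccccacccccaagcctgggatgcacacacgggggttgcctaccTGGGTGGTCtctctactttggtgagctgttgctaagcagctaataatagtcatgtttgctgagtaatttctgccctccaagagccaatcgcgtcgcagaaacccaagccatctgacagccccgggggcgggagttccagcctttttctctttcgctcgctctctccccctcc

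Both strands were searched. The motif was found in 113 of 33469 such windows in the annotation (0.338%) and in 1 of the 7 members with a window, which were Ptch1, Sufu, Smo, Boc, Gli2, Gli3 and Hhip. Of 88 windows of other pathway genes 1 held it, that of Ulk3. A match of letters is not a measured binding site, and no binding was measured here.

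Hhip, a membrane protein that binds and sequesters ligand and is itself a target, was at the limit of detection. It had 0 counts in the TBHP libraries and in replicate 1 of the TBHP+FGF21 group, and 1 count each in replicates 2 and 3. A count of 0 allows up to 3 counts, which is between 0.131 and 0.168 CPM in these libraries and covers counting error only. No difference in Hhip was detectable at this depth, and it did not pass the filter on low counts.

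Boc, an immunoglobulin-family co-receptor that presents ligand to PTCH1, had the most reads of the members. It was at 114.1, 104.2 and 119.9 CPM in the TBHP group. In the TBHP+FGF21 group it was at 154.6, 115.4 and 185.5 CPM. Replicates 1 and 3 of the TBHP+FGF21 group were above every TBHP library, and replicate 2 lay among them. The log2 difference was 0.43 (standard error 0.15) with all libraries and 0.60 (standard error 0.11) without that replicate.

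Smo, the transducer that PTCH1 holds in check, had the same libraries at the top, with a smaller difference. Its levels were 46.5, 43.2 and 49.4 CPM in the TBHP group and 58.9, 45.3 and 56.8 CPM in the TBHP+FGF21 group. Again replicates 1 and 3 were the highest and replicate 2 was within the TBHP range. The log2 difference was 0.21 (standard error 0.11), and 0.33 (standard error 0.10) without replicate 2.

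Sufu, the cytoplasmic inhibitor that binds the GLI proteins, was at 15.2, 12.7 and 12.9 CPM in the TBHP group and at 12.0, 12.9 and 13.7 CPM in the TBHP+FGF21 group. The groups overlapped, and the log2 difference of -0.08 was smaller than its standard error of 0.13. Its sign changed to 0.01 without replicate 1 of the TBHP group.

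Gli2 and Gli3, the factors that carry the signal to the genome, were higher in the TBHP+FGF21 group. Gli2, the main activator, was at 9.05, 8.89 and 10.8 CPM in replicates 1, 2 and 3 of the TBHP group. In the TBHP+FGF21 group it was at 18.1, 10.9 and 18.2 CPM. Replicates 1 and 3 were nearly equal and far above the TBHP libraries, and replicate 2 was barely above the highest of them. The means were 9.57 ± 1.05 and 15.8 ± 4.2 CPM (SD, n = 3), a log2 difference of 0.72 (standard error 0.19), or 1.65-fold.

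Gli3, the main source of GLI repressor, was at 10.4, 8.48 and 11.5 CPM in the TBHP group. In the TBHP+FGF21 group it was at 17.8, 12.9 and 17.8 CPM. The groups did not overlap, and replicate 2 was again the lowest of its group. The means were 10.1 ± 1.53 and 16.2 ± 2.84 CPM (SD, n = 3), a log2 difference of 0.67 (standard error 0.16). Without replicate 2 the log2 difference was 0.93 for Gli2 (standard error 0.14) and 0.82 for Gli3 (standard error 0.15). Of the distance from the TBHP mean to the mean of replicates 1 and 3, replicate 2 covered 15.6% for Gli2, 35.8% for Gli3, 4.56% for Boc and 66.4% for Gli1.

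Gli2 and Gli3 reads kept to nearly the same proportion while both levels varied. The number of Gli2 reads per Gli3 read was 0.866, 1.05 and 0.939 in the TBHP group and 1.02, 0.848 and 1.02 in the TBHP+FGF21 group, so these ratios overlapped. Set against Sufu, whose level was similar in both groups, Gli2 reads per Sufu read were 0.593, 0.698 and 0.836 in the TBHP group. They were 1.51, 0.844 and 1.33 in the TBHP+FGF21 group. The lowest of these, in replicate 2, was close to the highest TBHP value. Because Sufu was nearly level in these same libraries, this ratio restates the difference in Gli2 and adds nothing to it.

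The 250 bases before the starts of Gli2 and Gli3 are shown because these 2 genes had the largest differences above 0 among the members. Each CG dinucleotide is in capitals. The Gli2 window (GRCr8, chr13:32716419-32716668, minus strand) holds 27 CG and the Gli3 window (GRCr8, chr17:54405199-54405448, minus strand) holds 23, where the median of all 33469 windows is 5. Their GC content was 68.4% and 70.4%, against a median of 51.2%. Boc, which was also higher, had 6 CG and 48.0% GC, so the members that were higher did not share this feature.

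Gli2: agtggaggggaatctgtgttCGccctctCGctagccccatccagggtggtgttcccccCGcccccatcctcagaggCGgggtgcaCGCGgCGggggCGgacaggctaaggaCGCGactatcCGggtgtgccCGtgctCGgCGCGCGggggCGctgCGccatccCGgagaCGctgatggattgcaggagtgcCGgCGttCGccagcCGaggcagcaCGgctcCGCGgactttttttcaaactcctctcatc

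Gli3: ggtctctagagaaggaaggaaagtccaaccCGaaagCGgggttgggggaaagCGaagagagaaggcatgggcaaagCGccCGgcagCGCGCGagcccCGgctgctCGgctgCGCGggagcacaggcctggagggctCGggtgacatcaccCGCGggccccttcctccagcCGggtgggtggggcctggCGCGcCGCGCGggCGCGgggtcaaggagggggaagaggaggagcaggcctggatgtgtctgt

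**Figure D1:**
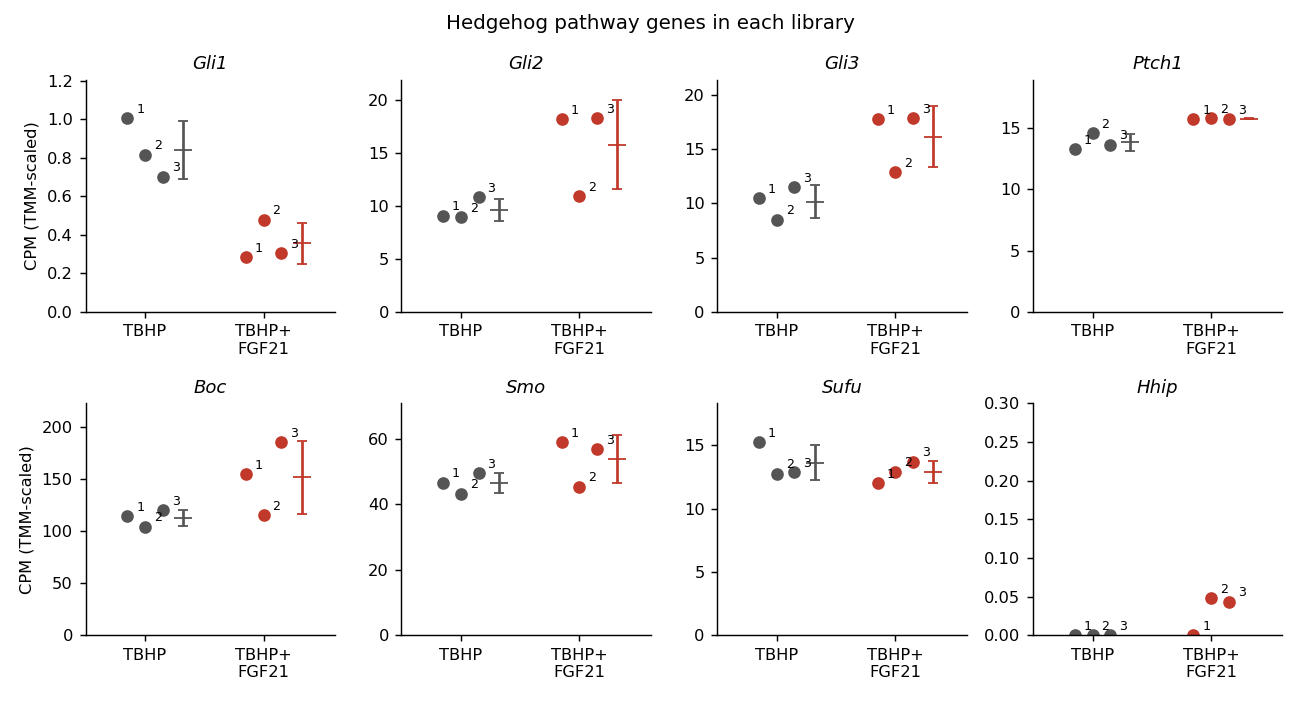
Level of 8 members in each library, in CPM after TMM scaling (linear axes from 0, each panel with its own scale). Numbered points are replicates, and the bar beside them is the mean ± SD of 3 libraries, left out for Hhip. For Gli2, Gli3, Boc and Smo replicate 2 is the lowest of the TBHP+FGF21 group, while Gli1 is lower in all 3 libraries of that group.

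Gli1, the transcriptional output and amplifier of the pathway, went the other way and rests on few reads. Its reads numbered 18, 18 and 15 with TBHP alone and 6, 10 and 7 with FGF21 as well, in the order of the replicates. In CPM this was 1.01, 0.816 and 0.703 CPM against 0.284, 0.479 and 0.305 CPM. The groups did not overlap, and replicate 2 of the TBHP+FGF21 group was the nearest to the TBHP libraries. Summed over a group, 51 counts (exact Poisson 95% interval 38.0 to 67.1, counting error only) stood against 23 (14.6 to 34.5). The log2 difference was -1.22 (standard error 0.39), and -1.47 (standard error 0.48) without replicate 2. Gli1 passed the filter on low counts through its level in the TBHP libraries. For a gene with so few reads, being kept in this way favours a lower level in the other group, though it does not fix it.

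The Gli1 reads can be split by strand with the per-sample files. In the first strand column there were 10, 9 and 8 counts in the TBHP group and 1, 4 and 0 in the TBHP+FGF21 group. In the second strand column there were 9, 9 and 7 counts in the TBHP group and 5, 6 and 7 in the TBHP+FGF21 group. The difference between the groups was mostly in 1 strand column, and in the other the groups met at 7 counts. The totals of the strand columns were in a ratio between 0.977 and 0.986, so the strand of a transcript was not resolved. In RefSeq's annotation the span of Gli1 overlaps that of Arhgap9. Arhgap9 had 7, 8 and 5 counts in the TBHP group and 12, 15 and 4 in the TBHP+FGF21 group. Without strand, reads from a stretch that such genes share cannot be assigned to either gene. The extent of the overlap was not examined. The same limit holds for Gli3, which overlaps LOC120098021, and for Sufu, which overlaps LOC134484077 and LOC134484078.

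Gli1 reads were a smaller share of all Gli reads in the TBHP+FGF21 group, where Gli2 and Gli3 levels were higher. Of the reads of Gli1, Gli2 and Gli3 together, Gli1 had 4.90%, 4.49% and 3.06% in the TBHP group. In the TBHP+FGF21 group it had 0.785%, 1.97% and 0.839%. Exact (Clopper-Pearson) 95% binomial intervals were 2.93% to 7.64%, 2.68% to 7.0% and 1.72% to 5.00% for the TBHP libraries. For the TBHP+FGF21 libraries they were 0.289% to 1.70%, 0.95% to 3.60% and 0.338% to 1.72%. The interval of replicate 2 of the TBHP+FGF21 group overlapped those of all 3 TBHP libraries. Those of replicates 1 and 3 lay below all 3 TBHP intervals, though their upper bounds nearly touched the lowest TBHP bound of 1.72%. These intervals cover counting error within a library only, so they are no test between the groups. The share is made of the Gli1, Gli2 and Gli3 differences already given and is not a separate result.

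**Figure D2:**
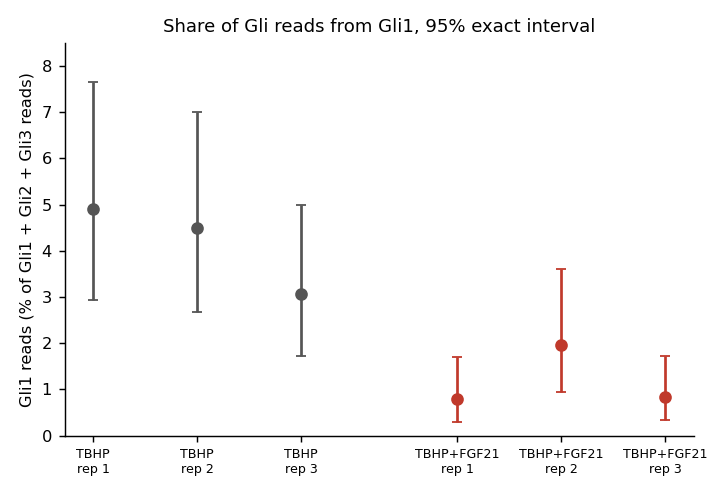
Share of Gli reads that came from Gli1 in each library (percent of Gli1, Gli2 and Gli3 reads together, linear axis from 0). Points are libraries and bars are exact 95% binomial intervals, which cover counting error only. The TBHP libraries lie between 3.06% and 4.90% and the TBHP+FGF21 libraries between 0.785% and 1.97%.

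Across the whole table, 11426 genes, 7 of them members, entered the edgeR fit (quasi-likelihood, p-values adjusted by Benjamini and Hochberg). At an adjusted p under 0.05 there was 1 gene in the table (0.00875%), Sirt1, and no member. At an unadjusted p under 0.05 by the same test, 3 of the 7 members were higher (Gli2, Gli3 and Boc), against 4.63% of all genes, and 1 was lower (Gli1), against 4.29%. With an absolute log2 fold change above 1 as well, 1 member was left, Gli1, against 0.534% of all genes. The groups did not overlap for 3 members that were higher (Gli2, Gli3 and Ptch1), against 4.90% of all genes, and for 1 that was lower (Gli1), against 5.00%. The members were chosen with this comparison in view, so these counts are no test of them and nothing is read from them. The median log2 difference of the 7 members was 0.21, with a range from -1.22 to 0.72, and that of all genes was -0.01.

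The size of the differences varied with the library left out. The log2 differences of Gli2, Gli3, Boc and Gli1 were larger in size without TBHP+FGF21 replicate 2. They were smaller without replicate 3 of that group, at 0.61 for Gli2, 0.60 for Gli3, 0.27 for Boc and -1.11 for Gli1. Leaving out replicate 1 of that group instead gave smaller sizes too, at 0.62 for Gli2, 0.61 for Gli3 and -1.08 for Gli1. Boc was then at 0.43, near its value with all libraries. With replicate 1, whose label names FGF21, as the only library of its group, the log2 difference was 0.93 for Gli2, 0.81 for Gli3, 0.46 for Boc and -1.53 for Gli1, with standard errors of 0.19, 0.19, 0.14 and 0.72. In that fit the single library is assumed to vary like the TBHP libraries. The directions of Gli1, Gli2, Gli3, Ptch1, Boc and Smo were the same with all libraries, without replicate 2 and with replicate 1 alone.

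**Figure D3:**
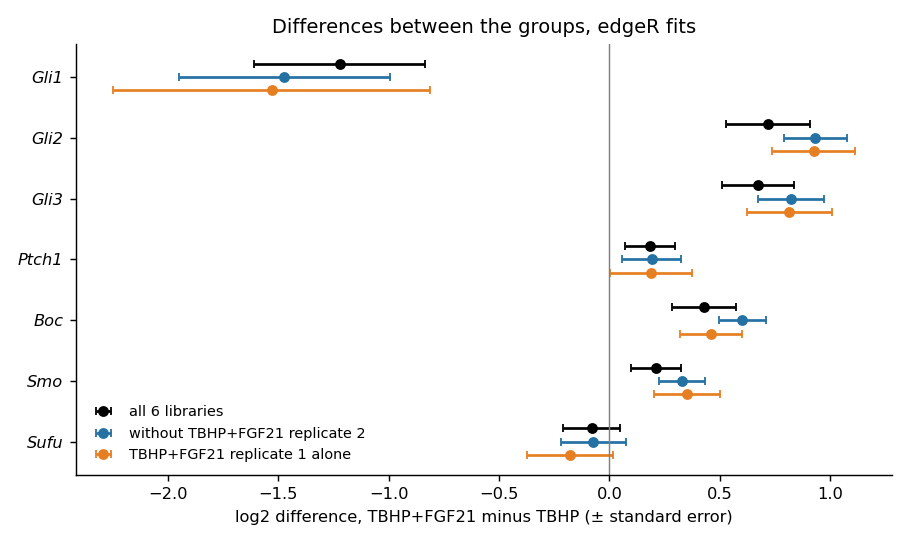
Log2 difference between the TBHP+FGF21 and TBHP groups for 7 members (points) with its standard error (bars), from edgeR fits to all 6 libraries, with TBHP+FGF21 replicate 2 left out, and with replicate 1 as the only library of its group. Gli1 is below 0 in every fit, and Gli2, Gli3 and Boc lie above 0 by more than their standard errors.

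The ligands were scarcely present. Shh had 0 counts in all 6 libraries, Ihh had 3 counts in all and Dhh had 15, so none of them could be tested. Of 9 genes of ligand production and release, 5 were tested, and all 5 had a log2 difference above 0, with a median of 0.37. Adjusted over all genes, no p of these 5 was under 0.05 by edgeR, and 2 had an unadjusted p under 0.05 by the same test and were higher, Scube2 and Disp1, against 4.63% of all genes. Disp1, the transporter that releases lipid-modified ligand, was at 16.6, 15.3 and 19.3 CPM in the TBHP group and 24.0, 18.6 and 23.7 CPM in the TBHP+FGF21 group. Only replicate 2 of the latter was within the TBHP range. Its log2 difference was 0.37 (standard error 0.14, unadjusted p = 0.0180, adjusted p = 0.553, edgeR).

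Scube2, a secreted protein that works with DISP1 in ligand release, had the largest difference with all 6 libraries of the tested pathway genes that are not members. Its reads numbered 14, 26 and 24 in the TBHP group against 73, 16 and 68 in the TBHP+FGF21 group. Replicates 1 and 3 of the latter were far above the TBHP libraries, and replicate 2 was the lowest of all 6 in CPM. The log2 difference was 1.21 (standard error 0.45, unadjusted p = 0.0197, adjusted p = 0.553, edgeR). It was 1.63 (standard error 0.28, adjusted p = 0.00188, edgeR) without replicate 2, but 0.87 (unadjusted p = 0.0949, edgeR) without replicate 1 and 1.03 (unadjusted p = 0.0560, edgeR) without replicate 3 of that group.

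In reception and the ciliary relay to SMO, 12 of 16 listed genes were tested, 8 with a log2 difference above 0 and 4 below, with a median of 0.08. None had an unadjusted p under 0.05 by edgeR, and none an adjusted one. Cdon, the co-receptor related to Boc, was at 15.6 ± 0.34 and 14.9 ± 1.75 CPM (SD, n = 3), a log2 difference of -0.07 (standard error 0.12). Gpr161, a ciliary receptor that restrains the pathway, was at -0.10 (standard error 0.24) on the log2 scale. Evc and Evc2, which anchor active SMO at the base of the cilium, had log2 differences of 0.04 and -0.13, and for Evc2 all TBHP+FGF21 libraries were below the TBHP libraries. The smallest p of the genes that were higher was that of Mgrn1, a ubiquitin ligase, at a log2 difference of 0.24 (standard error 0.12).

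Among the regulators of GLI proteins, 21 of 22 listed genes were tested, 14 with a log2 difference above 0 and 7 below, with a median of 0.04. None had an adjusted p under 0.05 by edgeR, and Prkacb alone had an unadjusted p under 0.05 by that test (all genes: 4.63% higher, 4.29% lower). Prkacb, a catalytic subunit of the protein kinase A that primes GLI proteins for processing, was at 17.8 ± 1.94 and 22.2 ± 1.63 CPM (SD, n = 3). Its groups did not overlap, and the log2 difference was 0.32 (standard error 0.12, unadjusted p = 0.0206, adjusted p = 0.553, edgeR). Without TBHP replicate 1 it was 0.24 (unadjusted p = 0.0824, edgeR), and without TBHP+FGF21 replicate 3 it was 0.27 (unadjusted p = 0.0734, edgeR). Prkaca, the other catalytic subunit listed, had a log2 difference of -0.05 (standard error 0.10). Gsk3b, the kinase that follows it on GLI3, was at -0.04 (standard error 0.10). Kif7, the ciliary kinesin that organises GLI at the tip, was at 0.09 (standard error 0.10), and Spop, which targets full-length GLI for degradation, at -0.14 (standard error 0.09). Rab23, a negative regulator of the pathway, had the smallest p of the genes that were lower, at -0.16 (standard error 0.09).

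Of 36 genes of ciliary transport, which the pathway needs for both GLI forms, 33 were tested, 24 with a log2 difference above 0 and 9 below, with a median of 0.08. None had an adjusted p under 0.05 by edgeR. At an unadjusted p under 0.05 by that test, Ttc8 and Tctn1 were higher and Ift20 was lower, against 4.63% and 4.29% of all genes, and each of the 3 lost that call in 4 of the 6 fits that left out 1 library. Ttc8, a subunit of the BBSome that carries receptors out of cilia, had a log2 difference of 0.29 (standard error 0.12). Tctn1, of the ciliary transition zone, was at 0.35 (standard error 0.15), a gene named after its value was seen. Ift20, an intraflagellar transport subunit, was at -0.41 (standard error 0.18), with 25.4, 24.6 and 19.1 CPM in the TBHP group and 13.8, 23.0 and 15.3 CPM in the TBHP+FGF21 group. Replicate 2 was again within the TBHP range. Arl13b, Ift88 and Kif3a, which shape the cilium and move along it, had log2 differences of -0.15, 0.22 and -0.08, with standard errors of 0.14, 0.15 and 0.11.

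Of 24 genes named as Hedgehog targets in other tissues, 16 were tested, 11 with a log2 difference above 0 and 5 below, with a median of 0.10. At an unadjusted p under 0.05 by edgeR 4 were higher (Osr1, Pax1, Sox9 and Tbx2), against 4.63% of all genes, and 0 were lower, against 4.29%. None had an adjusted p under 0.05 by edgeR. Osr1 and Pax1 kept an unadjusted p under 0.05 in every fit that left out 1 library, while Sox9 lost it in 2 and Tbx2 in 3. Osr1, a zinc finger factor of mesenchyme, was at 8.27, 6.03 and 8.34 CPM in the TBHP group and 11.2, 10.4 and 13.7 CPM in the TBHP+FGF21 group. All 3 libraries of the latter were above the TBHP libraries, with a log2 difference of 0.64 (standard error 0.17, unadjusted p = 0.00240, adjusted p = 0.553, edgeR).

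The other 3 were named after their values were seen. Pax1, the sclerotome factor that SHH induces in the embryo, was at 229.5, 210.7 and 219.7 CPM in the TBHP group. In the TBHP+FGF21 group it was at 347.9, 224.4 and 385.2 CPM. Replicate 2 was within the TBHP range and the other replicates were far above it, and the log2 difference was 0.54 (standard error 0.16). Sox9, the chondrocyte factor, and Tbx2 had log2 differences of 0.56 and 0.44 (standard errors 0.22 and 0.17). Foxf1, a mesenchymal target, was at 0.27 (standard error 0.14). Ccnd1, the cyclin of G1 phase, and Igfbp6, an IGF-binding protein, were at -0.06 and 0.03, each smaller than its standard error. Bmp4 had the smallest p of the genes that were lower, at -0.20 (standard error 0.14). Mycn had 21 counts in all and was not tested, and Bcl2 was not analysed here.

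Over the 5 lists together, 87 genes were tested, with a median log2 difference of 0.06. At an unadjusted p under 0.05 by edgeR 9 of them were higher, against 4.63% of all genes, and 1 was lower, against 4.29%. The groups did not overlap for 8 that were higher and 4 that were lower, against 4.90% and 5.00% of all genes. Without replicate 2 of the TBHP+FGF21 group, 11 of 89 genes passed 0.05 after adjustment (edgeR), where 3.78% of all 11559 genes were called higher and 3.72% lower, and without replicate 3 of that group 0 of 88 did, where 2 had an unadjusted p under 0.05. The 11 were Disp1, Scube2, Ift20, Ift140, Tctn1, Foxf1, Foxd1, Pax1, Sox9, Osr1 and Tbx2, and Ift20 was the only one of these with a log2 difference below 0. Foxd1 had 6, 5 and 7 counts in the TBHP group and 14, 6 and 34 in the TBHP+FGF21 group, too few for the fit to all 6 libraries. It passed the filter without replicate 2 only through its level in TBHP+FGF21 replicates 1 and 3. Being kept in this way favours a higher level in that group, so nothing is read from its call. The lists were compiled by role and not by their values in these libraries, but the pathway itself was proposed with the data known.

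**Figure D4:**
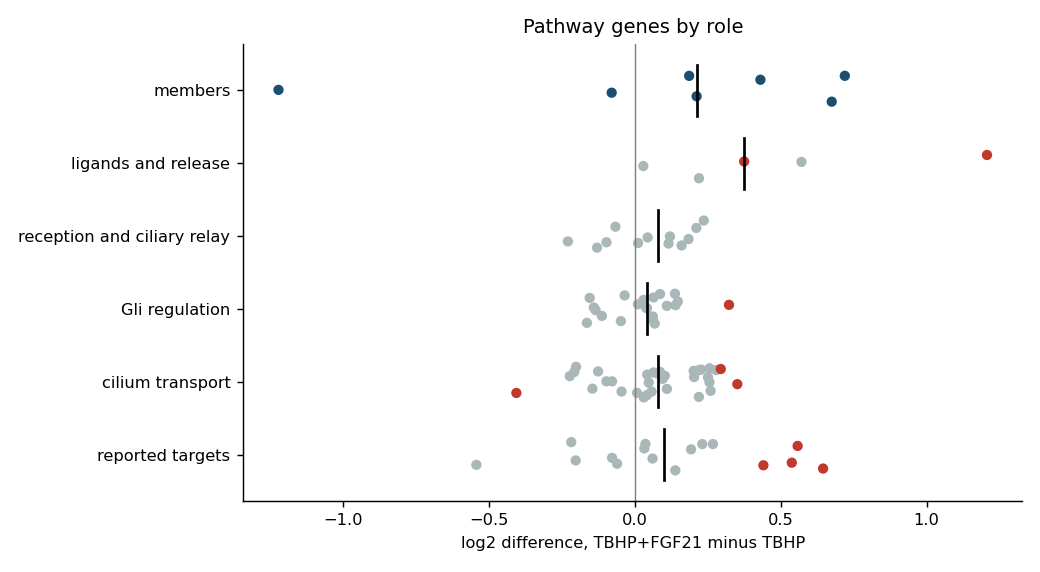
Log2 difference between the TBHP+FGF21 and TBHP groups for 7 members and for 87 other tested pathway genes by role. Points are genes (shifted at random along the vertical axis), red points are listed genes with an unadjusted p under 0.05 by edgeR, members are in blue, with no mark for p, and black lines are medians. The medians of the 5 lists lie between 0.04 and 0.37 and that of the members at 0.21.

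The genes whose log2 CPM followed that of Gli1 most closely over the 6 libraries, among 9961 genes with a mean of at least 50 counts, were Eml2, Bcl10 and Vnn1, with Pearson's r of 0.987, 0.981 and 0.978. For Ptch1 they were Kat5, Fgd6 and Zfp275, at 0.980, 0.971 and 0.967. A constant was added to CPM before the log for these correlations. It was similar in size to the Gli1 levels, and how far the Gli1 ranking depends on it was not tested. These are the highest of 9961 values over 6 points that share their libraries, and they are given as a description.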

How the data were processed

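RNA-seq counts of 6 libraries of rat NPCs (3 TBHP, 3 TBHP+FGF21) were analysed. Per library, the authors deposited a file of raw counts by Ensembl identifier (unstranded and by strand, in the layout of STAR), and for the series a combined table by gene symbol. The combined table was treated as estimated counts because 22 deposited rows hold values that are not whole, which were rounded up. STAR and featureCounts are named in the submitters' processing notes, and the genome build and annotation are not given in the sources used here. Reads outside the genes counted (18.5% to 20.9% per library) were left out of library sizes. The 7 members in the fit were linked to the per-sample files by identical counts in all 6 libraries.

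The main fit used edgeR 4.0.16 in R 4.3.3 (TMM, filterByExpr with minimum count 10 and minimum total 15, glmQLFit, glmQLFTest, group as the only term) with Benjamini-Hochberg adjustment over 11426 genes, and standard errors are the log2 fold change over the square root of F. The fold threshold stated by the study was an absolute log2 fold change above 1 with p under 0.05. On simulated counts of 11341 genes this test recovered 169 of the 200 genes given a log2 change of 1, with 16 false calls. The simulated libraries of a group varied independently, and none stood apart over many genes as TBHP+FGF21 replicate 2 did. The recovery in the real libraries is therefore not known from it. DESeq2 1.42.0, limma 3.58.1 (limma-voom), other scalings, filters, count columns, a replicate block and leaving out each library were alternatives. Nothing in the sources ties a library to a separate animal, so p-values measure the spread between these libraries.

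The members, lists and alternatives were chosen with earlier results of these data known. The genes named were the members, 20 pathway genes set by name, those past a threshold, and the smallest p in each direction of each list, and 1 of those set by name is not reported here. The motif was searched in RefSeq's GRCr8 windows, credited to that annotation. Levels per length were not computed, since no transcript lengths were used.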

Additional observations from a re-analysis of the deposited data

How the results depend on the processing

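The directions of Gli1, Gli2, Gli3, Ptch1, Boc and Smo were the same in every alternative in which each was fitted, 17 for each but Gli1, which was fitted in 14. Gli2 ranged from 0.53 to 0.93, Gli3 from 0.54 to 0.82, Boc from 0.27 to 0.60 and Gli1 from -1.53 to -1.08 on the log2 scale. Sufu changed sign, to 0.03 with the first strand column and 0.01 without TBHP replicate 1. The causes of these shifts were not tested.

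With edgeR, 1 gene of the whole table had an adjusted p under 0.05. The count was 4 with DESeq2's Wald test, 5 with no filter on low counts, 2 with the replicate block and 325 with replicate 1 as the only TBHP+FGF21 library (chosen after the data had been seen). None passed (0) with limma-voom and with the per-sample files (unstranded, first and second strand column), against 996, 1082, 956 and 1049 genes at an unadjusted p under 0.05 by limma-voom and by edgeR. With 1 library left out it ran from 0 to 867, reaching 867 when TBHP+FGF21 replicate 2 was omitted, and the 0 counts came with 337 to 1771 genes at an unadjusted p under 0.05 by edgeR. Genes past the fold threshold numbered 61, against 146 with no filter, 20 with a minimum count of 30, 189 with replicate 1 alone and 51 to 200 with 1 library left out (200 when TBHP+FGF21 replicate 2 was omitted, 104 for TBHP replicate 3).

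Other pathway genes at an unadjusted p under 0.05 numbered 10 (11.5% of those tested, against 8.92% of all genes), 16 with no filter (16.7% against 9.66%) and 2 to 22 with 1 library left out (2.27% against 2.96%, and 24.7% against 23.6%). They were 5 and 4 when TBHP replicates 1 and 2 were left out, and 5, 22 and 2 for TBHP+FGF21 replicates 1, 2 and 3. Whether the numbers in the titles pair the libraries was not settled. The deviations of same-numbered libraries from their group means correlated at -0.12, 0.21 and 0.15. Those of differently numbered libraries correlated at -0.26 to 0.18. Deviations within so small a group are tied to one another, so these values cannot decide it. With the replicate block the difference was 0.69 for Gli2, 0.67 for Gli3 and -1.22 for Gli1, and 15 other pathway genes had an unadjusted p under 0.05 (17.2%, against 14.0% of all genes). Of the 10 pathway genes, Disp1, Ift20, Tctn1, Ttc8, Scube2, Tbx2, Prkacb and Sox9 lost that call in 2 to 4 of the fits that left out 1 library. Levels per length were not run. Depth limits Gli1, with 6 to 18 counts in a library, and Hhip, with at most 1.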
